A study of Mus musculus with 2 samples.

Results

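The 10 genes described here have been reported as markers of mammary stem cells: *Procr*, *Bcl11b*, *Bcl11a*, *Lgr5*, *Lgr6*, *Tspan8*, *Axin2*, *Cd44*, *Nes* and *Prom1*. They were chosen by name from the literature on multipotent, quiescent or Wnt-responsive mammary stem cells, and all 10 were found among the 49492 genes of the count table. RNA was sequenced from sorted mammary basal cells of wild-type female mice of 8 to 10 weeks, labelled Day 7, with 1 library for each group. CL basal came from mice given clodronate liposomes (CL), lipid vesicles that kill the macrophages that take them up, by 3 intraperitoneal injections at intervals of 2 days. Ctrl basal came from control mice, which one label describes as saline treated and another as having no treatment, and no library of mice given empty liposomes was analysed here. How many mice went into each library was not given in the sources used here. The sort kept cells that lacked CD45, CD31 and TER119 and were CD24+CD29hi. With 1 library per group, no difference below has a replicate check, and intervals cover counting error only.

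The mammary epithelium is a bilayer with luminal cells inside and basal, largely contractile, cells outside, and transplantation assays place most stem cell activity in the basal layer. Several partly overlapping stem cell populations have been described there, some dividing and some quiescent, and each is known by its own marker. Canonical Wnt signalling, in which beta-catenin escapes its destruction complex and acts through TCF/LEF factors, sustains many of them, so Wnt receptors and Wnt target genes are among the markers. Most of these markers are also used by other cells: *Procr* by endothelium, *Bcl11b* by T cells, *Bcl11a* by B cells and luminal progenitors, *Nes* by endothelium and pericytes, and *Prom1* by luminal cells.

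Both libraries were deep and of like size, with 38962512 counts in CL basal against 37846008 in Ctrl basal. The basal keratin *Krt14* was abundant in both, at 9366 TPM (counts scaled for exon length and depth) in CL basal against 8372 in Ctrl basal. The other defining basal gene, *Krt5*, stood at 1301 TPM in CL basal against 1500 in Ctrl basal, below the luminal keratin *Krt8* in both. Of 10 basal genes, 0 differed by 1.5-fold. Luminal genes were present too, and 10 of 13 were at least 1.5-fold lower in CL basal and 1 higher, beside 11.7% and 6.33% of all genes with at least 20 counts, with *Krt8* at 2082 and 3348 TPM. *Pecam1*, which encodes CD31, had 4266 counts in CL basal against 5503 in Ctrl basal, and *Ptprc*, which encodes CD45, had 521 and 537, although the sort was made against both proteins.

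Levels were compared per exon length, and they separated the markers into an abundant and a scarce group. In Ctrl basal, *Procr* was the highest at 287 TPM (95% Poisson interval 281 to 294), at rank 497 of all genes. *Nes* followed at 191 TPM and *Cd44* at 167 TPM, so that these 3 genes made up 94% of the summed TPM of the 10. The other 7 were far lower, at 12.3 TPM for *Tspan8*, 9.70 for *Axin2*, 6.87 for *Lgr6*, 5.35 for *Lgr5*, 3.32 for *Bcl11b*, 2.95 for *Prom1* and 0.408 for *Bcl11a*. The intervals of *Bcl11b* and *Prom1* overlapped, and the other neighbours in this order did not.

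In CL basal the order was different. *Procr* was still the highest, at 194 TPM (189 to 199) and rank 752, but *Cd44* (163 TPM) now stood above *Nes* (147 TPM). Among the scarce markers, *Axin2* (12 TPM) and *Lgr6* (9.87 TPM) stood above *Tspan8* (7.57 TPM), and *Bcl11b* reached 5.82 TPM, with an interval that overlapped that of *Lgr5* (6.0 TPM). *Prom1* (1.18 TPM) and *Bcl11a* (0.553 TPM) closed the order. The lengths used were those of all exons merged over isoforms, so a gene with long exons that are seldom used is understated.

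**Figure D1:**
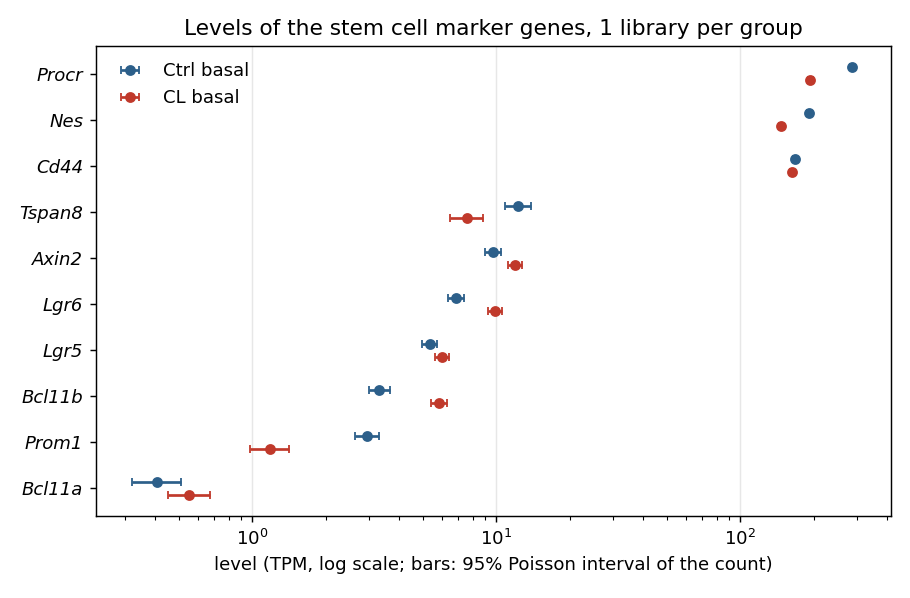
Level of each of the 10 markers (TPM, log axis) in Ctrl basal (blue) and CL basal (red), 1 library each, with bars for the 95% Poisson interval of the count. *Procr*, *Nes* and *Cd44* lie above 100 TPM in both libraries and the other 7 genes below 13 TPM, and *Tspan8* and *Prom1* lie further left in CL basal while *Bcl11b* and *Lgr6* lie further right.

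Differences are given as the log2 ratio of CL basal over Ctrl basal after scaling to effective library size, with the exact binomial 95% interval. Of the 10 markers, 3 were at least 1.5-fold lower in CL basal (*Prom1*, *Tspan8* and *Procr*), 1 was at least 1.5-fold higher (*Bcl11b*), and 6 stayed within 1.5-fold. Among all 17356 genes with at least 20 counts, 11.7% were at least 1.5-fold lower and 6.33% at least 1.5-fold higher. At 2-fold, 1 marker was lower and 0 were higher, against 4.79% and 2.07% of all genes. All 10 markers had over 100 counts, and among genes with at least 100 counts these shares were smaller, 7.14% lower and 2.78% higher at 1.5-fold and 1.87% and 0.474% at 2-fold. The median log2 ratio of the 10 was 0.04, beside -0.01 for all genes tested, with 5 values above 0 and 5 below. The set therefore had no common direction. The interval included 0 for 1 of the 10, *Bcl11a*.

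**Figure D2:**
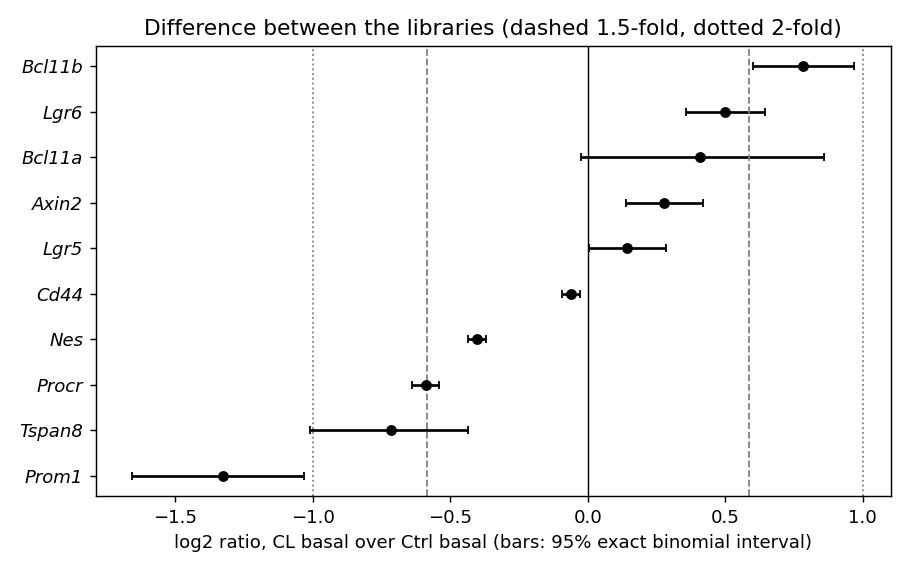
Log2 ratio of CL basal over Ctrl basal for each marker, with bars for the 95% exact binomial interval; dashed lines mark 1.5-fold and dotted lines 2-fold. The values run from -1.33 for *Prom1* to 0.78 for *Bcl11b*, and the interval of *Procr* spans the 1.5-fold line.

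The spread of ratios between these libraries narrowed with abundance, so each marker is placed beside genes with a like number of counts. The standard deviation of the log2 ratio was 0.46 over 6410 genes with 100 to 999 counts in both libraries together, 0.28 over 5592 genes with 1000 to 9999, and 0.24 over 1505 genes with 10000 or more. *Bcl11a*, *Tspan8* and *Prom1* fell in the first of these classes, *Bcl11b*, *Lgr5*, *Lgr6* and *Axin2* in the second, and *Procr*, *Cd44* and *Nes* in the last. All 10 had at least 77 counts in each library.

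**Figure D3:**
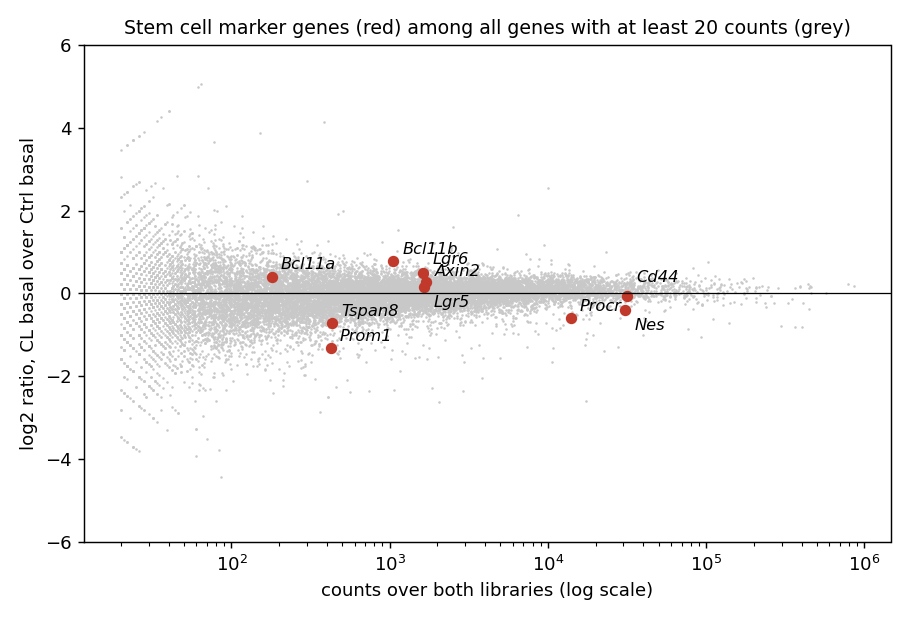
Log2 ratio of CL basal over Ctrl basal against the counts of both libraries together (log axis), for all genes with at least 20 counts (grey) and the 10 markers (red). The grey cloud narrows to the right, and *Bcl11b* above it and *Prom1* and *Procr* below it lie near its edges, while *Lgr5* and *Cd44* lie inside.

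*Procr* (chromosome 2, 155751117 to 155755471, GRCm38, plus strand) encodes the protein C receptor and marks multipotent mammary stem cells. It had 5568 counts in CL basal against 8360 in Ctrl basal, or 145 and 218 CPM (counts scaled for depth alone). Here and below, paired values are given with CL basal first. The log2 ratio was -0.59 (-0.64 to -0.54), and 1.86% of the genes with 10000 or more counts were as low or lower. With the scaling of DESeq2 or by the upper quartile it stood at -0.583 and -0.58 and no longer reached 1.5-fold. In bulk RNA, fewer cells of a type and less RNA per cell cannot be told apart. Its exons overlapped no other gene in the table. The 150 bases before its first exon (chr2:155750967-155751116, GRCm38.p6, plus strand, from the RefSeq promoter table) are shown because they hold a copy of TGACTCA, the word bound by AP-1 dimers of Fos and Jun, in capitals.
Procr: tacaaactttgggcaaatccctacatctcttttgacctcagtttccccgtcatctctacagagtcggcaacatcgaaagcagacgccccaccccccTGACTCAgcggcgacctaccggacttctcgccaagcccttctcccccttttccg

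Protein C, thrombin and tissue factor act on the same membrane as the receptor, and of 11 genes of this pathway 8 had enough counts. Among these, 7 were below 0 and 1 above, 2 were at least 1.5-fold lower and 0 higher, beside 11.7% and 6.33% of all genes, and the median log2 ratio was -0.26. *F3*, tissue factor, had 4322 counts in CL basal against 7663 in Ctrl basal, a log2 ratio of -0.83 (-0.88 to -0.78). *F2rl1*, a protease-activated receptor, had 349 and 509 counts (-0.55). *Proc*, protein C itself, had 31 and 67 counts (-1.07, -1.78 to -0.48). *Thbd*, thrombomodulin, which helps to activate protein C, had 1394 and 1580 counts (-0.18). *Pros1*, the protein S cofactor, was the one gene above 0, with 5154 and 4273 counts (0.27).

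*Procr* is also an endothelial gene. Of 11 endothelial genes, 1 was at least 1.5-fold lower (*Egfl7*) and 0 higher, beside 11.7% and 6.33% of all genes, while 9 were below 0 and 2 above, with a median log2 ratio of -0.30. The list summed to 475 CPM in CL basal against 591 CPM in Ctrl basal, and neither of its defining markers, *Pecam1* and *Cdh5*, was at 0 in either library. *Cdh5*, VE-cadherin, had 5173 and 6462 counts (-0.32) and *Pecam1* had a log2 ratio of -0.37. *Procr* was 1.08 times *Cdh5* by counts in CL basal and 1.29 times in Ctrl basal. Per length the gap was wider, with *Procr* at 194 and 287 TPM and *Cdh5* at 87 and 107 TPM. Set against the summed endothelial list, *Procr* was lower in CL basal by a log2 difference of -0.28 (Wald 95% interval -0.33 to -0.22), and set against *Krt14* by -0.73 (-0.78 to -0.68). The last value depends on the basal gene chosen. *Krt14* itself was at 0.14 and *Krt5*, the other defining basal gene, at -0.23, so the difference would be smaller against *Krt5*. Of 8 fibroblast genes, 2 were at least 1.5-fold lower, *Lum* at -1.86 and *Dcn* at -0.69, and 0 higher. The defining genes *Pdgfra* at -0.49 and *Col1a1* at -0.35 stayed within 1.5-fold, and the median was -0.42 with 7 of 8 below 0. The part of endothelial or fibroblast RNA in the value of *Procr* was not tested.

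*Bcl11b* (chromosome 12, 107910403 to 108003602, minus strand) encodes a zinc finger transcription factor and marks quiescent mammary stem cells. It had 667 counts in CL basal against 386 in Ctrl basal, or 17.3 and 10.1 CPM. This log2 ratio of 0.78 (0.60 to 0.97), 1.72-fold, was the highest of the 10, and 0.376% of genes with 1000 to 9999 counts were as high or higher. Its 1053 counts lie at the lower edge of that class, and among the 2432 genes within 1.5 times its counts, where the standard deviation was 0.32, the share was 0.452%. Its exons were shared with no other gene in the table. *Bcl11a* (chromosome 11, 24078056 to 24174123, plus strand), its paralog, had 103 and 77 counts, a log2 ratio of 0.41 (-0.02 to 0.86), so counting error alone could cover the difference. It shares 316 of 13175 exonic bases with *4930538E20Rik* on the other strand, which had 5 and 1 counts. The interval also allows a value as high as that of *Bcl11b*, and the difference between the paralogs was 0.37 (Wald 95% interval -0.09 to 0.83).

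*Bcl11b* is also a lineage gene of T cells, which the gate against CD45 should remove, and T cell genes were measured beside it. The 10 genes of that list summed to 26.6 CPM in CL basal against 31.9 CPM in Ctrl basal, with *Thy1*, which other cells also express, the most abundant by counts at 478 and 746 (-0.64, -0.81 to -0.48). *Cd3e* had 14 counts in each library and *Cd3d* 30 and 21, and neither was at 0. Per length, *Lck*, a kinase of the T cell receptor, stood at 5.53 and 4.94 TPM and the adhesion receptor *Cd2* at 5.16 and 4.25 TPM, levels near those of *Bcl11b* (5.82 and 3.32 TPM). The defining genes *Cd3d* (1.17 and 0.808 TPM) and *Cd3e* (0.243 and 0.24 TPM) stood well below *Bcl11b*, and *Thy1* (11.3 and 17.4 TPM) above it. The log2 ratios of *Lck* and *Cd2* were 0.14 (-0.14 to 0.42) and 0.25 (-0.13 to 0.64). The median of the list was 0.11, with 0 genes at least 1.5-fold higher and 1 lower, *Thy1*, beside 6.33% and 11.7% of all genes. Relative to the summed list, *Bcl11b* was higher in CL basal by a log2 difference of 1.05 (Wald 95% interval 0.83 to 1.26). Without *Thy1*, a choice made after seeing the data, the list summed to 545 and 477 counts and the difference was 0.60 (0.34 to 0.85). Relative to *Krt14*, itself at 0.14, the *Bcl11b* difference was 0.65 (0.46 to 0.83), and it would be larger relative to *Krt5*, at -0.23. The part of T cell RNA in the value of *Bcl11b* was not tested. B cell genes, relevant to *Bcl11a*, summed to 8.48 and 9.10 CPM, with *Cd79a* at 56 and 49 counts.

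Both Bcl11 proteins are subunits of BAF, a chromatin remodelling complex. Its other 18 listed subunits stood close to 0, with a median log2 ratio of 0.12. Past 1.5-fold, 0 were lower and 0 higher, beside 11.7% and 6.33% of all genes. *Smarca4*, the ATPase, had 13358 and 13748 counts (-0.05). The extremes of this list were *Smarcb1* at -0.21 and *Bcl7b* at 0.28.

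The 3 Wnt-linked markers all stayed within 1.5-fold, with values above 0. *Lgr6* (chromosome 1, 134983301 to 135105276, minus strand), a receptor for R-spondins, had 956 counts in CL basal against 674 in Ctrl basal, a log2 ratio of 0.50 (0.36 to 0.64). Its relative *Lgr5* (chromosome 10, 115450311 to 115587780, minus strand) had 871 and 786 counts, a log2 ratio of 0.14 (0.004 to 0.29). *Axin2* (chromosome 11, 108920349 to 108950783, plus strand), a scaffold of the destruction complex that Wnt signalling itself switches on, had 931 and 765 counts, a log2 ratio of 0.28 (0.14 to 0.42). It shares 209 of 5506 exonic bases with *Gm11670* on the other strand, which had 84 and 64 counts. Among genes of like counts, 2.32% were as high as *Lgr6* or higher, 13.0% as high as *Axin2* and 30.0% as high as *Lgr5*. With counts halved, for the case that both mates of a pair were counted, the interval of *Lgr5* was -0.06 to 0.34 and includes 0, and those of *Lgr6* and *Axin2* stayed above 0. The ratio of *Lgr6* to *Lgr5* counts was 1.10 in CL basal against 0.858 in Ctrl basal, a log2 difference of 0.36 (Wald 95% interval 0.16 to 0.56). Per length *Lgr6* (9.87 and 6.87 TPM) stood above *Lgr5* (6.0 and 5.35 TPM) in both libraries.

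The 250 bases before the first exons of *Axin2* (chr11:108920099-108920348, plus strand) and *Lgr6* (chr1:135105277-135105526, minus strand), from RefSeq on GRCm38.p6, are shown as the promoters of the Wnt-linked markers with a RefSeq window. The words searched for TCF/LEF factors, on both strands, were CTTTGAA (in 4.46% of all windows), CTTTGAT (3.21%), CTTTGTA (3.20%) and CTTTGTT (5.03%), and neither of these promoters holds any of them.
Axin2: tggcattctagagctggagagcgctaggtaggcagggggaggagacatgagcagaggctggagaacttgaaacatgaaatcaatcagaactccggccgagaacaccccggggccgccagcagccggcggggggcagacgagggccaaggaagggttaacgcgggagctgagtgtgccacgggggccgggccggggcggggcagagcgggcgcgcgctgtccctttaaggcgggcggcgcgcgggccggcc
Lgr6: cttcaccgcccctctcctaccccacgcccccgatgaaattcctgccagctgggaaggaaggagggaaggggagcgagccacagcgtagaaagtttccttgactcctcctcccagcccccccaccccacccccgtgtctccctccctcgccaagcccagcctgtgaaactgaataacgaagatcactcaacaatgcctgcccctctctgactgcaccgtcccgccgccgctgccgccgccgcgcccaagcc

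Across the 10 RefSeq windows of 9 markers, each of 250 bases before a start site, 1 held a TCF/LEF word, beside 14.8% of all 32851 windows with any of the 4 words. That copy of CTTTGAA lay in *Bcl11b*, with its first base 89 bases before the start site (chr12:108003487-108003513, minus strand, within an exon of the count table), and it is shown in capitals with its flanks.
Bcl11b: aggccaagcaCTTTGAAgaagtgtgag

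The AP-1 word of *Procr* was also found in 1 of the *Prom1* windows and in 4.46% of all windows, and TATAAA, the TATA box, was found in 0 of the 10 windows and in 12.4% of all. *Axin2* had the most CG-rich window of the 10, with 69.2% G and C and 24 CG dinucleotides, against medians of 52.4% and 6 over all windows. *Bcl11b* had the lowest share of G and C, 44.8%. These matches are descriptions of the letters and were listed after their counts were known.

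Other parts of the Wnt pathway were measured beside these markers. Of 18 further Wnt target genes 15 had enough counts, with a median log2 ratio of 0.09, 11 above 0 and 4 below, and 1 gene past 1.5-fold in each direction, beside 11.7% of all genes lower and 6.33% higher. The secreted inhibitor *Wif1* had 1280 counts in CL basal against 858 in Ctrl basal (0.57, 0.45 to 0.70), and the membrane inhibitor *Apcdd1* had 222 and 147 (0.58, 0.28 to 0.90). *Ephb2*, a guidance receptor, was the gene at least 1.5-fold lower, at -1.0 (-1.15 to -0.86) with 600 and 1199 counts, and *Nkd2*, a feedback inhibitor, at -0.41. *Notum*, a secreted enzyme that inactivates Wnt proteins, was the gene at least 1.5-fold higher, with 21 and 7 counts (1.35, 0.29 to 3.06). *Lef1*, a TCF/LEF factor, had 26 and 31 counts, a log2 ratio of -0.24 with a wide interval that includes 0 (-1.07 to 0.54).

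Among R-spondins, *Rspo2* and *Rspo4* had 0 counts in both libraries, where 3 counts, the limit that a count of 0 allows, correspond to 0.078 CPM, *Rspo1* had 104 and 115 counts, and *Rspo3* had 31 and 62 (-0.96, -1.68 to -0.36). The remaining receptor of the family, *Lgr4*, stood at 29.5 TPM in CL basal against 23.9 in Ctrl basal, above both *Lgr5* and *Lgr6* per length. Its log2 ratio was 0.28 (0.20 to 0.37). *Znrf3* and *Rnf43*, the ubiquitin ligases that Lgr receptors restrain, were at 0.51 (741 and 518 counts) and 0.34 (673 and 529 counts).

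In the destruction complex, *Axin1* was far more abundant than *Axin2*, at 137 and 108 TPM, and its log2 ratio of 0.33 (0.28 to 0.38) was close to that of *Axin2*. The count of *Axin2* over that of *Axin1* was 0.125 in CL basal against 0.13 in Ctrl basal, a log2 difference of -0.05 (Wald 95% interval -0.20 to 0.10). All 14 genes of this list stayed within 1.5-fold, while 11.7% of all genes were at least 1.5-fold lower and 6.33% higher. The median was 0.06, with *Amer1* at 0.40 and *Btrc* at -0.20 marking the ends of the list among genes with 100 counts or more.

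*Tspan8* (chromosome 10, 115817284 to 115849893, plus strand) encodes a tetraspanin, a membrane organiser that marks a quiescent basal stem cell subset together with Lgr5. It had 163 counts in CL basal against 268 in Ctrl basal, or 4.24 and 6.99 CPM. The log2 ratio was -0.71 (-1.01 to -0.43), 1.64-fold lower, and 7.74% of genes with 100 to 999 counts were as low or lower. Of 20 other tetraspanins and *Prom2* with enough counts, 14 were below 0 and 6 above, with a median of -0.14, and 4 were at least 1.5-fold lower and 0 higher, beside 11.7% and 6.33% of all genes. *Tspan1* was at -1.44 (54 and 150 counts) and *Cd82* at -0.68 (1083 and 1734), *Cd37* and *Tspan15* were the others past 1.5-fold, whereas *Cd9* was at 0.03 and *Tspan6* at 0.51.

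*Prom1* (chromosome 5, 43993620 to 44102032, minus strand) encodes prominin, a glycoprotein of membrane protrusions that in the mammary gland marks hormone-sensing luminal cells. It had 120 counts in CL basal against 303 in Ctrl basal, or 3.12 and 7.90 CPM. Its log2 ratio of -1.33 (-1.66 to -1.03) was the lowest of the 10 and the one past 2-fold, and 1.29% of genes with 100 to 999 counts were as low or lower. The opposite-strand gene *Gm16401* shares 424 of its 7175 exonic bases and had 1 and 19 counts. The paralog *Prom2* had 652 and 704 counts and a log2 ratio of -0.11 (-0.27 to 0.04).

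Luminal genes were lower in CL basal together with *Prom1*. Of the 13, 12 were below 0, and their median log2 ratio was -0.71. *Aldh1a3*, of luminal progenitors, had 8048 counts in CL basal against 19601 in Ctrl basal (-1.29), *Krt19* was at -1.11, *Krt8* at -0.71 and the oestrogen receptor *Esr1* at -0.60, with 246 and 374 counts. *Gata3* was the exception at 0.60. The list summed to 2538 CPM in CL basal against 4480 CPM in Ctrl basal. Relative to that sum, *Prom1* was lower in CL basal by a log2 difference of -0.52 (Wald 95% interval -0.83 to -0.21), and for *Tspan8* the same difference was 0.10 (-0.18 to 0.38). Without *Krt8*, the most abundant gene of the list and a choice made after seeing the data, the *Prom1* difference was -0.40 (-0.70 to -0.09) and that of *Tspan8* 0.22 (-0.06 to 0.51). The part of luminal RNA in the values of *Prom1* and *Tspan8* was not tested.

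*Cd44* (chromosome 2, 102811141 to 102901665, minus strand), a receptor for the matrix sugar hyaluronan, was nearly level. It had 15580 counts in CL basal against 16204 in Ctrl basal, a log2 ratio of -0.06 (-0.09 to -0.03), and 20.9% of genes with 10000 or more counts were as low or lower. The 12 genes listed with *Cd44* include its ligands, hyaluronan enzymes, membrane linkers and splicing factors. Of these, 2 were at least 1.5-fold lower (*Esrp2* and *Hmmr*) and 2 higher (*Has1* and *Has2*), beside 11.7% and 6.33% of all genes, and the median was 0.003. *Ezr*, the membrane linker ezrin, had a log2 ratio of -0.02, and the hyaluronan synthases differed among themselves. *Has2* had 5633 and 3134 counts (0.84, 0.78 to 0.91) and *Has1* had 1099 and 656 (0.74, 0.60 to 0.88), whereas *Has3* had 112 and 135 (-0.27, -0.65 to 0.10). *Esrp2*, a splicing factor that acts on Cd44 transcripts, was at -0.72 with 408 and 671 counts, and *Hmmr*, another hyaluronan receptor, at -0.62 with 66 and 102. Counts per gene do not separate the Cd44 isoforms.

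*Nes* (chromosome 3, 87971078 to 87980451, plus strand) encodes nestin, an intermediate filament of progenitor cells. It had 13302 counts in CL basal against 17524 in Ctrl basal, or 346 and 457 CPM, a log2 ratio of -0.40 (-0.43 to -0.37), and 2.79% of genes with 10000 or more counts were as low or lower. The filament gene *Vim*, with which nestin assembles, was level at 0.04 with 28775 and 27887 counts, so *Nes* relative to *Vim* differed by -0.44 (Wald 95% interval -0.48 to -0.40). Of 7 other filament genes, 4 were at least 1.5-fold lower and 0 higher, beside 11.7% and 6.33% of all genes. Most of these rest on few counts, where ratios spread most: *Des* at -0.79 (492 and 847 counts), *Gfap* at -0.89 (38 and 72), *Nefm* at -0.66 (141 and 223) and *Nefl* at -2.33 (10 and 58). *Synm* stood at 0.31.

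Nestin is found in endothelium and pericytes too. Of 6 pericyte genes with enough counts, 4 were at least 1.5-fold lower, beside 11.7% of all genes, and all 6 were below 0, with a median of -0.65. The list of 7 summed to 87.9 CPM in CL basal against 132 CPM in Ctrl basal. *Rgs5* had 1635 and 2281 counts (-0.48), *Pdgfrb* 376 and 524 (-0.48), and *Abcc9* was at -0.81. The 4 pericyte genes at least 1.5-fold lower were *Abcc9*, *Kcnj8*, *Notch3* and *Cspg4*. *Nes* differed from the summed endothelial list by -0.09 (-0.13 to -0.04) and from the summed pericyte list by 0.19 (0.12 to 0.26), both Wald 95% intervals of a log2 difference. Schwann cell genes, another source of nestin, were mixed, with *S100b* at -2.20 on 5 and 30 counts and *Ngfr*, which basal cells also express, at 0.69. The part of vascular RNA in the value of *Nes* was not tested.

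**Figure D4:**
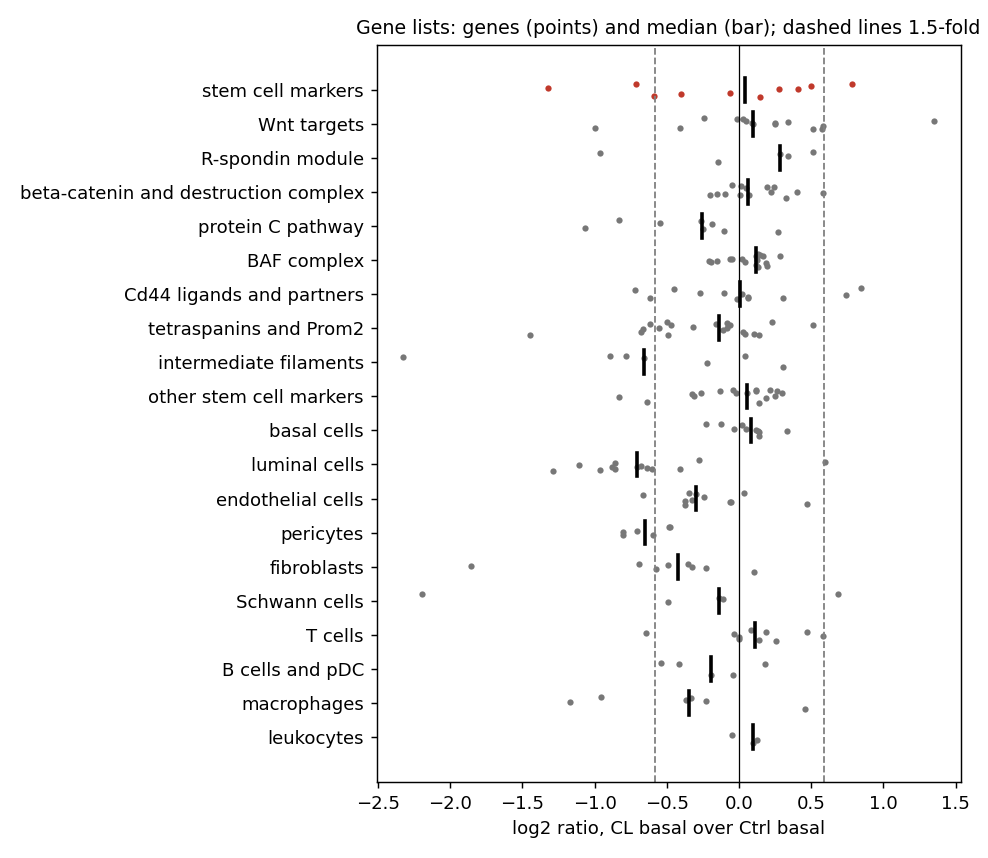
Log2 ratio of CL basal over Ctrl basal for every gene with at least 20 counts in each list (points; a gene may be in more than 1 list) and the median of the list (black bar), with the 10 stem cell markers in red and dashed lines at 1.5-fold. The markers spread from -1.33 to 0.78 around a median of 0.04, while the luminal (-0.71), pericyte (-0.65), fibroblast (-0.42) and endothelial (-0.30) medians lie left of 0 and the basal median at 0.08.

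Other reported stem or progenitor markers gave a median of 0.05 over 17 genes, 5 of which are also in another list. The integrin *Itga6*, another surface protein used to sort mammary stem cells, was at 0.12 with 12403 and 11400 counts. *Itgb3* had 630 and 1121 counts (-0.83, -0.98 to -0.69) and *Kit*, also a luminal progenitor gene, 205 and 319 (-0.64). *Dll1*, a Notch ligand of stem cells, was at 0.30 and *Foxp1* at 0.26. Past 1.5-fold, 2 of the 17 were lower and 0 higher, near the 11.7% and 6.33% of all genes.

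Macrophage genes were scarce in both libraries. The list summed to 13.6 CPM in CL basal and 17.2 CPM in Ctrl basal, with *Adgre1*, a defining macrophage gene, at 10 and 7 counts and *Csf1r* at 89 and 64. Of 6 with enough counts, 2 were at least 1.5-fold lower, beside 11.7% of all genes: *Mrc1* at -0.95 with 86 and 168 counts, and *C1qc* with 6 and 16, whose interval of -3.06 to 0.01 includes 0. Leukocyte genes as a group were level, with a median of 0.10 over 3 genes and sums of 17 and 17.2 CPM.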

How the data were processed

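Basal cells sorted from the mammary gland gave 1 library for CL basal and 1 for Ctrl basal, sequenced on an Illumina HiSeq X 10. The values deposited by the authors are raw read counts per gene over annotated exons, in the layout of featureCounts, on GRCm38 (mm10 per the labels); the aligner, annotation release, use of strand and filters are not given in the sources used here. Ratio and log2 ratio columns of the authors were not used. Small counts were mostly even (68.7% of values from 1 to 20 in CL basal, 67.9% in Ctrl basal), so mates may have been counted singly and the true intervals are wider; PCR copies would widen them further.

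Counts were scaled by TMM effective library sizes (edgeR 4.0.16, R 4.3.3; factors 0.987 for CL basal and 1.01 for Ctrl basal). Log2 ratios used a prior count of 2, and genes whose libraries summed to 20 counts or more entered counts and medians. Intervals of 95% were exact binomial (Clopper-Pearson) for ratios, exact Poisson for levels (scipy 1.17.1) and Wald for differences between log2 ratios. TPM used the deposited exon lengths. No replicate model can be fitted to 1 library per group, so no p-value is given and a gene is counted as higher or lower by fold alone. The functions were tested on simulated counts. Of the markers, 9 had the same span in GENCODE M21 and 7 shared no exonic base with another gene; the rest are uncertain where exons overlap, since the use of strand is unknown.

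The markers and lists were chosen with earlier results of these data known. Named genes are the 10 markers, defining genes of each list, the paralogs *Lgr4*, *Axin1* and *Prom2*, and in each list the 2 highest and 2 lowest genes with at least 100 counts. Genes outside that rule (*Proc*, *Notum*, *Has3*, *Rspo2*, *Rspo3*, *Rspo4*, *Cd37*, *Tspan15*, *Nefl*, *Nefm*, *Notch3*, *Cspg4*, *S100b*, *C1qc*) are named to complete small counts and were chosen after their values were seen. Some defining genes of the lists are not reported here. Alternatives were other scalings (total counts, upper quartile, size factors of DESeq2 1.42.0), prior counts of 0.5 and 5, no filter or at least 100 counts, removal of a trend on mean expression, and halved counts.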

Additional observations from a re-analysis of the deposited data

How the results depend on the processing

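Of 90 log2 ratios of the 10 markers under 9 alternatives, 85 stayed within the main interval and none changed sign. The other 5 belong to abundant genes with narrow intervals. Scaling by total counts gave -0.10 for *Cd44* and -0.44 for *Nes*, and removal of the trend on mean expression gave -0.67 for *Procr*, -0.14 for *Cd44* and -0.49 for *Nes*. The number of markers at least 1.5-fold lower was 3, or 2 (without *Procr*) when scaled by the upper quartile or the size factors of DESeq2. The median of the 10 ran from 0.002 to 0.05. Of 171 list medians, 168 moved by less than the distance from value to interval bound that is typical of the list (its median). The basal median was 0.0439 with total counts and -0.000643 without the trend, and the median of other stem cell markers was -0.0195 without the trend. Medians near 0 also crossed it for the genes listed with *Cd44* (-0.06 to 0.01), the destruction complex (-0.01 to 0.07) and B cell genes (-0.23 to 0.06). The shares of all genes past a fold depended on the filter: without one they were 21.3% lower and 13.3% higher at 1.5-fold and 12.9% and 5.38% at 2-fold, and with at least 100 counts 7.14%, 2.78%, 1.87% and 0.474%. By CPM, without length, 2 of the 10 markers kept their place in the order of CL basal and 3 in that of Ctrl basal. Chosen after seeing the data, genes within 1.5 times a marker's counts in place of the classes moved the share of genes as far out by less than 1.5 times for all 10, and *Bcl11b* relative to T cell genes was 0.60 without *Thy1*, with *Prom1* at -0.40 and *Tspan8* at 0.22 relative to luminal genes without *Krt8*. With counts halved the intervals of 2 markers, *Bcl11a* and *Lgr5*, include 0. No paired analysis was possible because CL basal and Ctrl basal are single libraries. Depth limits *Bcl11a* most, and the spread between animals is unknown for every value.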
